A study of Mus musculus with 2 samples.

Results

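Wnt receptors, modulators and transducers are the genes by which cells secrete, receive, dampen and relay Wnt signals. They were chosen by name: 54 mouse genes for receptors, coreceptors, cytoplasmic and nuclear transducers, secreted antagonists, R-spondin components, secretion factors and planar polarity proteins, with no Wnt ligand among them. All 54 were found by Ensembl gene identifier among 34624 loci, a locus being a gene by itself or a set of genes given under 1 joined identifier. For 47 members the locus held that gene alone, and for 7 (Fzd10, Axin2, Gsk3a, Tcf7l1, Notum, Kremen2 and Vangl1) it was joined with other genes, so that its reads cannot be given to the member alone. The samples were 2 replicates of 1 untreated group, normal CBA/Ca×C57Bl/10 embryos taken whole at 10.5 days post coitum, from which total RNA was sequenced. Whether embryos were pooled within a replicate is not stated in the labels, so the spread between replicates may be technical. No condition was compared, and what follows describes levels, their order and their spread over the replicates.

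In the beta-catenin branch of the pathway, a Wnt protein binds a frizzled receptor and an LRP coreceptor, Dishevelled proteins are recruited, and the complex of Axin, APC and GSK3 that marks beta-catenin for destruction is held back. Beta-catenin then enters the nucleus and turns TCF/LEF factors from repressors into activators, and several of the induced genes (Axin2, Lef1, Nkd1, Znrf3, Notum and Dkk1 among them) feed back on the pathway. In midgestation embryos, Wnt signals pattern the neural tube, limb buds, somites and tail, and a beta-catenin-independent branch with Vangl and Prickle proteins orients cells within a tissue plane.

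Reads summed over loci came to 18318181 in replicate 1 and 117522171 in replicate 2, and a count of 0 would allow up to 0.164 and 0.0255 CPM (reads scaled to that sum), counting error only. Of 8 markers of the embryo proper all passed 10 RPKM (reads per kilobase of transcript, scaled to library size) in both replicates. The summed level of 5 yolk sac endoderm markers was 558 RPKM in replicate 1 and 146 RPKM in replicate 2, with all 5 more than 2-fold lower in replicate 2 (1 of them, Ttr, in a joined locus). Among the embryo markers the embryonic globin genes Hbb-y and Hba-x were more than 2-fold higher in replicate 2. Of 4 maternal decidua markers 2 reached 1 RPKM in both replicates (sums 21.1 and 17.8 RPKM, most of it Cryab with 18.4 and 10.9 RPKM), as did 1 of 5 trophoblast markers (sums 5.70 and 3.92 RPKM), of which Tpbpa and Psg21 had 0 reads. The decidual prolactin gene Prl8a2 went the other way from the decidua sum, with 1.23 RPKM from 13 reads in replicate 1 and 6.38 RPKM from 383 reads in replicate 2. The part of these tissues in the levels of the Wnt genes was not tested, nor whether the marker reads came from these tissues alone. In whole embryos fewer cells of a type and less RNA per cell cannot be told apart.

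The bases before the gene start are shown for paralogues that differed in level. RefSeq (build GRCm38.p6, later than the mm9 build of the values) gave a window of 250 bases before the start for 35 of the 54 members, the most upstream start being used. Each sequence is printed on the strand of its gene, 5′ to 3′, with CpG dinucleotides in capitals. Ctnnb1 (chr9:120933150-120933399, plus strand) is shown as the highest member, Fzd10 (chr5:128600856-128601105, plus strand) beside the low frizzled Fzd9 (chr5:135251048-135251297, minus strand), Lgr4 (chr2:109917397-109917646, plus strand) beside Lgr6 (chr1:135105277-135105526, minus strand), and Rspo1 (chr4:124986180-124986429, plus strand) beside Rspo4 (chr2:151842677-151842926, plus strand).
Ctnnb1: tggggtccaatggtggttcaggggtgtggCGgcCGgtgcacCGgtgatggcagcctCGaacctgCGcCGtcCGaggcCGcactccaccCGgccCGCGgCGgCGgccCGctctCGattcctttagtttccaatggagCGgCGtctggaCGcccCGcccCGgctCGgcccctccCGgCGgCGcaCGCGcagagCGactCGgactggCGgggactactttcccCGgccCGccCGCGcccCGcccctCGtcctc
Fzd10: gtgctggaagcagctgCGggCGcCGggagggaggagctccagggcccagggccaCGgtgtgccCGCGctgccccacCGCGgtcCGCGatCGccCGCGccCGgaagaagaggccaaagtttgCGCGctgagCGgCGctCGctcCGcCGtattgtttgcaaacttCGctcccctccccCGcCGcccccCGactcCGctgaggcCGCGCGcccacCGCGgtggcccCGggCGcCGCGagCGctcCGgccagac
Fzd9: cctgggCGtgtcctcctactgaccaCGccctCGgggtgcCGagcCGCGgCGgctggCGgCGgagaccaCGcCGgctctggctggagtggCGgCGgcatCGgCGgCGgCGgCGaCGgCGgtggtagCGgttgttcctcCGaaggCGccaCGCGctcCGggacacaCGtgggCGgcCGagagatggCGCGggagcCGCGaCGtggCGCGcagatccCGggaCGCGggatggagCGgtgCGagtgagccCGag
Lgr4: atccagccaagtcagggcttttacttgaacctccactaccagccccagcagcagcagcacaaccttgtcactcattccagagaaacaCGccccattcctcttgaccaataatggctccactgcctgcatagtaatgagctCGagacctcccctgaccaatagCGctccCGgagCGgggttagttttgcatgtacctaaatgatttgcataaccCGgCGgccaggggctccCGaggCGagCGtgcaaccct
Lgr6: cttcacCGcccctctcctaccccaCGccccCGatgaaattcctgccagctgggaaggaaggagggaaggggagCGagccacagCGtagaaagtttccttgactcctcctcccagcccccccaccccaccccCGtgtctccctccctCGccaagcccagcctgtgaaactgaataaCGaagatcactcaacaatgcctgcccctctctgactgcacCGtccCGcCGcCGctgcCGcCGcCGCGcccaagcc
Rspo1: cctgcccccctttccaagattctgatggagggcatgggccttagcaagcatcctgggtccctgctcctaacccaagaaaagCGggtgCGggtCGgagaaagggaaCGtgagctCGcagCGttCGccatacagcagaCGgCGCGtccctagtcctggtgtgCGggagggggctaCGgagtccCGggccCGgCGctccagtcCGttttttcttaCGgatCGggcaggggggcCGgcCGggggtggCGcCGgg
Rspo4: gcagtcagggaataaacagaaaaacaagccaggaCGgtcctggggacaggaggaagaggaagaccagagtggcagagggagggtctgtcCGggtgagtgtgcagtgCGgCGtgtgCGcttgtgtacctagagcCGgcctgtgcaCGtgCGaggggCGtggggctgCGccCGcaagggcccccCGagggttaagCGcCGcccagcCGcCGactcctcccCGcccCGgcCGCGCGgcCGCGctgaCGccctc

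The number of CpG dinucleotides did not follow the level within these pairs. Fzd9 held 42 CpG and Fzd10 held 37, Lgr6 held 16 and Lgr4 held 10, and Rspo4 held 24 and Rspo1 held 22, so that in each of these pairs the lower gene had the higher CpG count. These pairs were chosen for display, and other paralogues did not all go this way. Sfrp2, for example, held 16 CpG and Sfrp5, far lower in RPKM, held 13. Ctnnb1 held 35. The 35 windows had a median of 17 CpG (range 6 to 42), against a median of 6 over 27025 gene windows, and 29 of the 35 held 10 or more, against 38.2% of all windows. The windows of all genes were not filtered for protein-coding genes. Across the 35 genes, Spearman's rho between CpG count and mean RPKM was -0.16, a description over genes that share 2 libraries and a CpG-rich base composition.

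Dkk1 (chr19:30549497-30549746, minus strand), a secreted Wnt antagonist that is itself a Wnt target, is shown because its window held both motifs that were searched: the TCF/LEF-type letters CTTTGAA or CTTTGAT on either strand, and the TATA box TATAAA on the gene's strand. The capitals mark CTTTGAA from position -117 and TATAAA from position -54, counted from -1 at the base before the start.
Dkk1: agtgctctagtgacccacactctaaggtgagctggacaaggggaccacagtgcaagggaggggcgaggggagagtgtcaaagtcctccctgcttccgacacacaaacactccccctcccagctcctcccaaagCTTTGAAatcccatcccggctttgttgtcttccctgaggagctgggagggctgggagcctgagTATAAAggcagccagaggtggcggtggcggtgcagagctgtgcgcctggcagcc

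The TCF/LEF-type letters occurred in 2 of the 35 member windows (5.71%), Dkk1 and Gsk3a, against 7.69% of all windows of this length. The TATA letters occurred in 3 (8.57%), Dkk1, Dkk2 and Fzd1, against 8.13% of all windows. A match describes letters only and is no evidence of a binding site.

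Most of the pathway was transcribed in these embryos. Of the 54 members, 50 (92.6%) reached 1 RPKM in both replicates, against 49.4% of all 34624 loci and 65.1% of 19295 protein-coding loci. At 10 RPKM or more in both replicates there were 32 (59.3%), against 29.0% of all loci and 42.2% of protein-coding loci. The median level of the members was 18.6 RPKM in replicate 1 and 13.8 RPKM in replicate 2, against 8.38 and 5.52 RPKM over protein-coding loci. The 4 members below the minimum were Rspo4, Sfrp4, Sfrp5 and Lgr6. Levels ranged from 0.133 RPKM for Lgr6 to 997 RPKM for Ctnnb1, as means of both replicates, and the order was much the same in each library (Spearman's rho 0.975 across the 54 genes, which are not independent replicates). The first 4 places, held by Ctnnb1, Fzd3, Apc and Lrp6, were the same in both replicates. Below them neighbours changed places: Axin2 had rank 5 in replicate 1 and rank 8 in replicate 2, and Axin1 had rank 10 in replicate 1 and rank 6 in replicate 2.

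**Figure D1:**
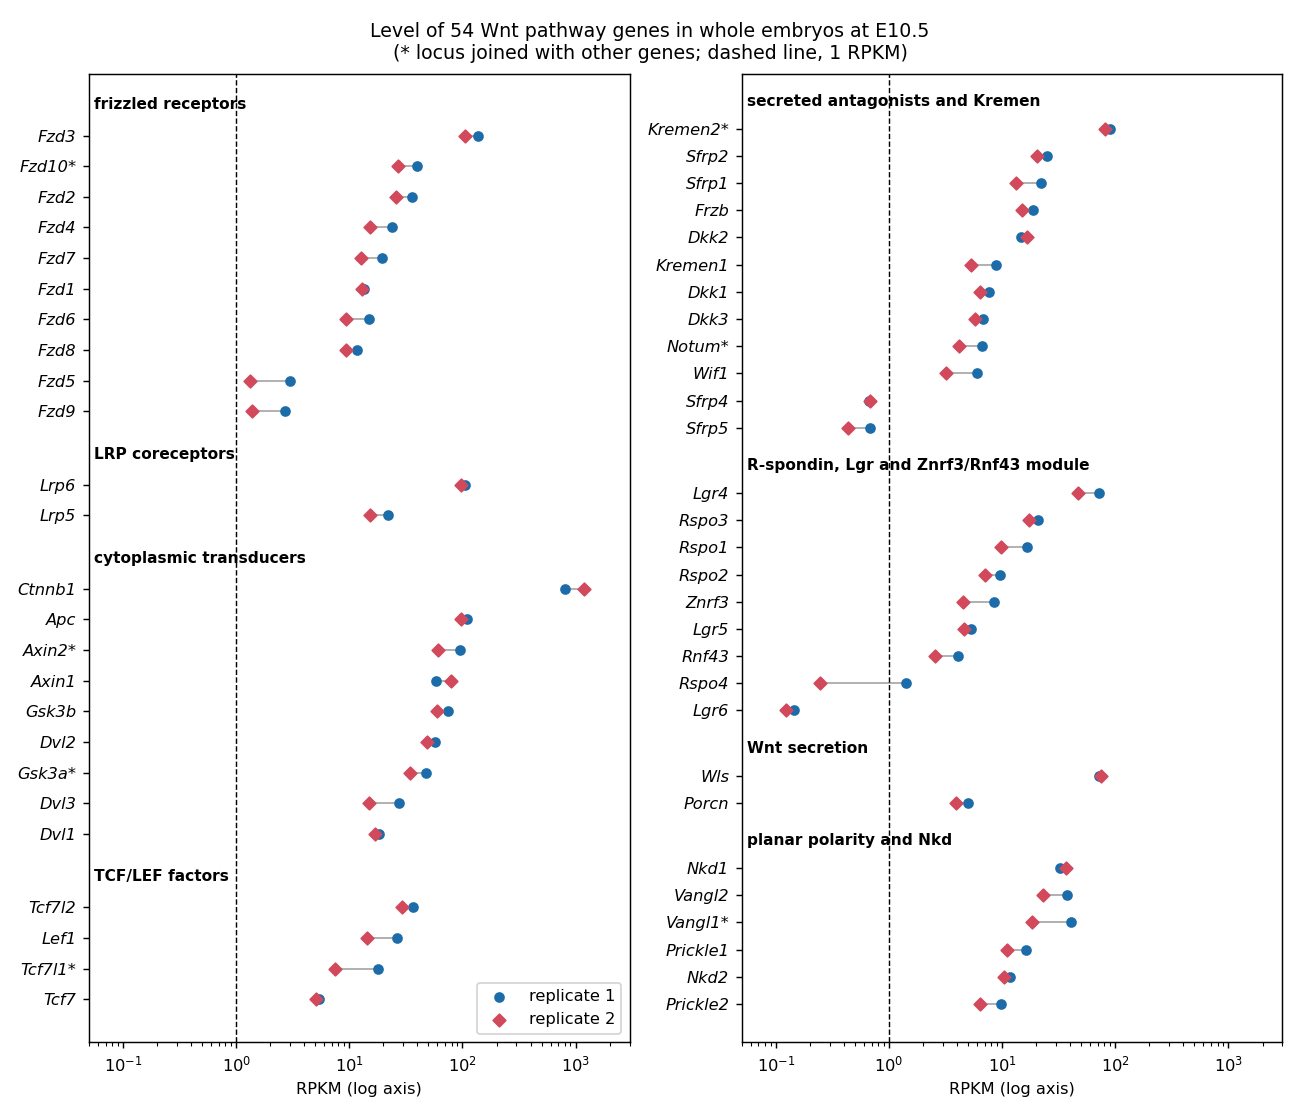
Level of each of the 54 genes in replicate 1 (circle) and replicate 2 (diamond), in RPKM on a log axis, grouped by role. Ctnnb1 stands apart at the top of the scale, and only Rspo4, Sfrp4, Sfrp5 and Lgr6 have a value left of the dashed line at 1 RPKM.

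Levels of paralogues and partners were compared in 36 pairs as the difference of log2(RPKM + 1), first gene minus second. A pair was called ordered when its sign was shared by both libraries and its mean difference exceeded a limit. The limit was 2 SD of the log2 ratio between replicates among loci of that level, and lay between 0.98 and 2.39. Loci below 1 RPKM took the SD of the lowest loci of 1 RPKM or more. By this rule 20 pairs were ordered and 16 were not. With 2 replicates no exact permutation test of 2 values against 2 can go below a two-sided p of 0.333, so none was used. One property of the values limits such comparisons: 38 members had several transcripts in the locus, and the length behind their RPKM could not be set to 1 transcript. The levels were therefore also taken as reads per kilobase of the longest annotated transcript, a measure chosen after the data were seen. A pseudocount of 1 was added before the log2 here too, unless stated, and weighs more because the values on this scale are lower. All 20 ordered pairs kept their sign on that measure in both replicates, and 14 stayed beyond the limit.

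**Figure D2:**
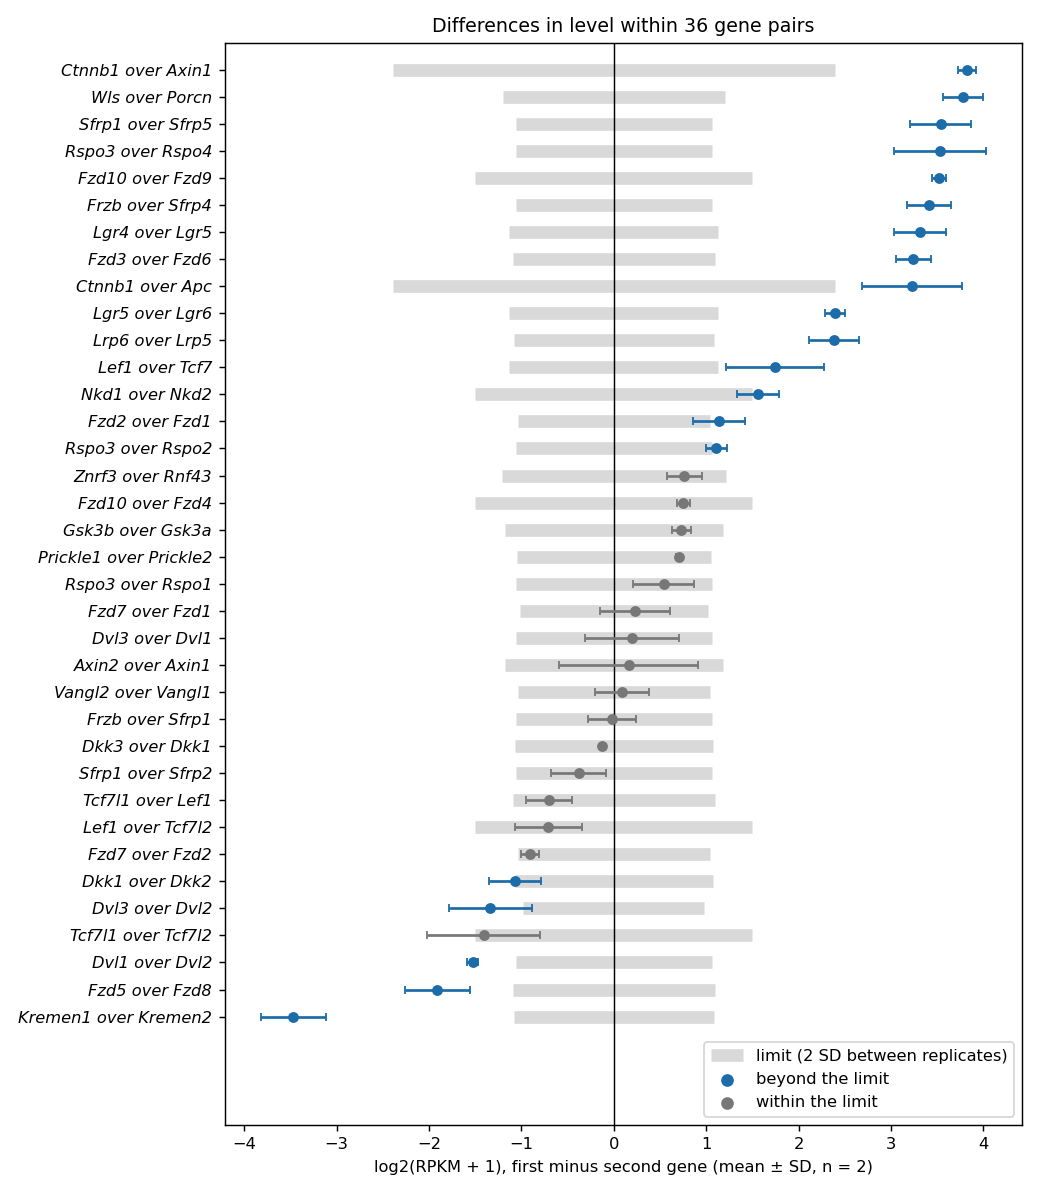
Difference in log2(RPKM + 1) between the genes of each pair, first minus second (mean ± SD, n = 2 replicates), with the limit of 2 SD between replicates as a grey bar. The 20 blue pairs lie beyond their limit and the 16 grey pairs within it, and the limit is widest (2.39) for the pairs with Ctnnb1.

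Among the receptors, all 10 frizzled genes were detected, and 1 of them made up a large part of the family's RPKM. Frizzled proteins are multi-pass membrane receptors that bind Wnt through a cysteine-rich extracellular domain. Fzd3, known for axon guidance and tissue polarity, had 136 RPKM in replicate 1 and 106 RPKM in replicate 2, or 45.3% and 47.9% of the summed frizzled RPKM. That share depends on the length: per kilobase of the longest transcript it was 23.6% and 25.1%, close to the 23.2% and 22% of Fzd10. Next in RPKM were Fzd10, a gene of the dorsal neural tube, with 39.6 and 27.2 RPKM in a joined locus, and Fzd2 with 35.6 and 25.9 RPKM. Fzd4, a receptor for Norrin as well as Wnt in vessels, had 24.0 and 15.2 RPKM, and its difference from Fzd10 (0.75 ± 0.07 on the log2 scale, Fzd10 minus Fzd4, SD, n = 2) was within the limit of 1.5. On the scale of the longest transcript that difference was 1.77, beyond its limit of 0.83.

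The middle of the family held 4 genes that stood close together. Fzd7 had 19.4 RPKM in replicate 1 and 12.6 RPKM in replicate 2, Fzd1 had 13.5 and 13.0 RPKM, Fzd6 had 14.9 and 9.27 RPKM, and Fzd8 had 11.7 and 9.36 RPKM. Fzd7 minus Fzd1 changed sign between replicates (0.49 in replicate 1 and -0.04 in replicate 2), and Fzd7 minus Fzd2 (-0.91 ± 0.10) was within the limit of 1.04. Fzd2 exceeded Fzd1, its close relative, by 1.14 ± 0.28, just beyond the limit of 1.04, but in replicate 2 alone the difference was 0.94 and not beyond it. Nor was it beyond its limit at 3 SD, after rescaling replicate 2 to the median ratio (1.15, limit 1.27) or on the scale of the longest transcript (0.93, limit 0.95). Both loci had 1 transcript, and with no pseudocount the mean difference on that scale was 1.04. Fzd3 exceeded Fzd6, which belongs to the same subfamily, by 3.24 ± 0.19 (limit 1.09), and by 1.58 on the scale of the longest transcript.

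At the bottom were Fzd5, a gene of the developing eye, with 3.0 RPKM in replicate 1 and 1.32 RPKM in replicate 2, and Fzd9 with 2.69 and 1.37 RPKM. They rested on 108 and 73 reads in replicate 1. Fzd5 lay below its relative Fzd8 by -1.91 ± 0.35 (limit 1.09), and Fzd10 lay above Fzd9 by 3.52 ± 0.08 (limit 1.5). Each frizzled gene had a lower RPKM in replicate 2 than in replicate 1, as did 79.1% of loci of 1 RPKM or more on average.

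The LRP coreceptors, which are phosphorylated on their cytoplasmic tail when Wnt is bound and then capture Axin, were unequal. Lrp6 had 105 RPKM in replicate 1 and 96.1 RPKM in replicate 2, and Lrp5 had 22.2 and 15.3 RPKM. Lrp6 exceeded Lrp5 by 2.38 ± 0.27 on the log2 scale (limit 1.08) and made up 84.4% ± 2.67 (SD, n = 2) of the RPKM of both. On the scale of the longest transcript the share of Lrp6 was 72.8% in replicate 1 and 78.0% in replicate 2.

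**Figure D3:**
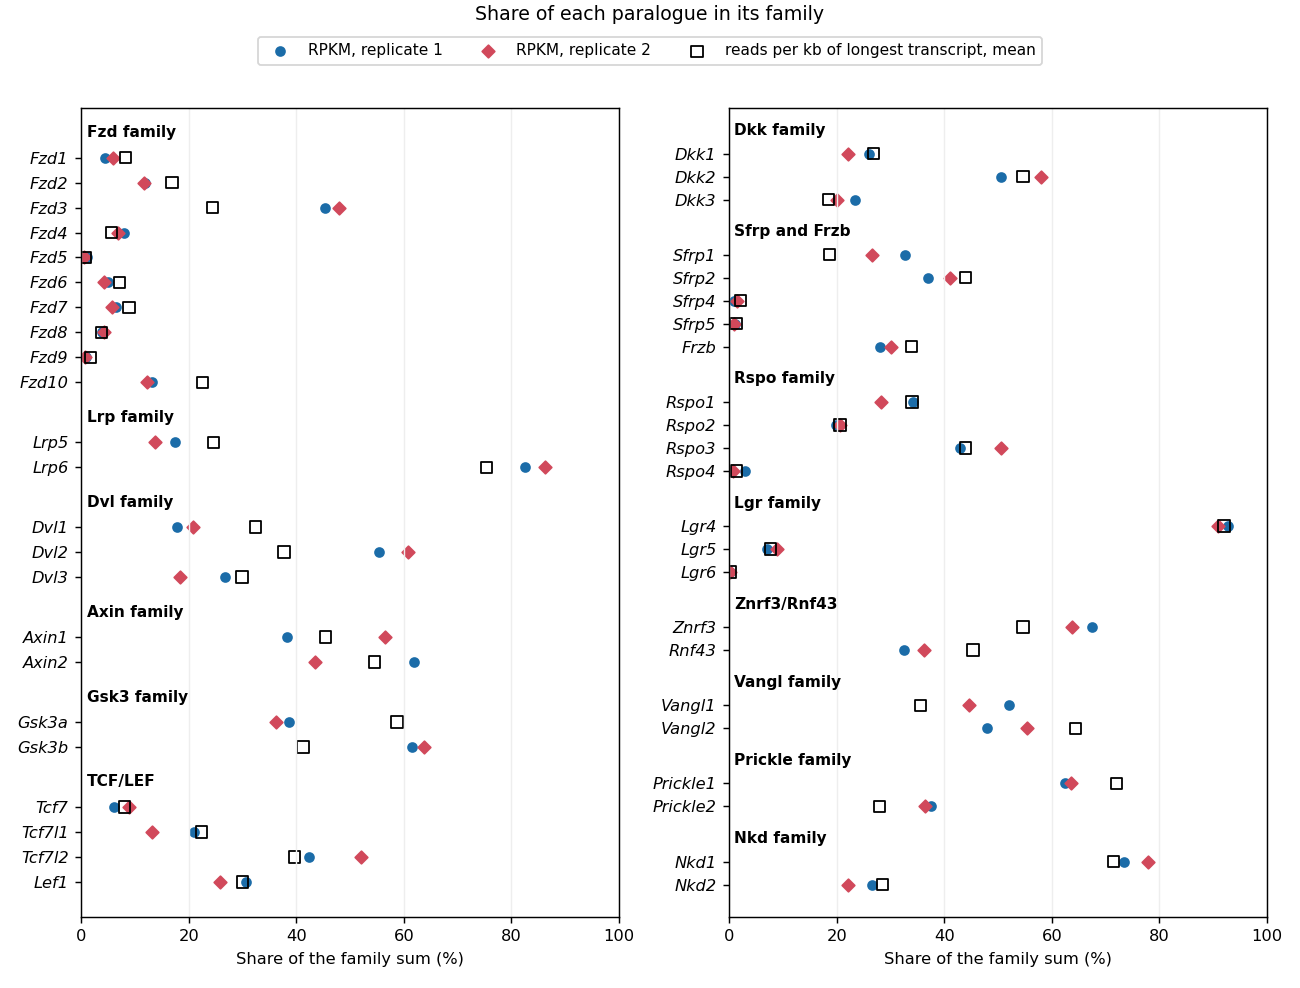
Share of each paralogue in the sum of its family, in percent, from RPKM in replicate 1 (circle) and replicate 2 (diamond) and from reads per kilobase of the longest transcript (open square, mean of both replicates). Lgr4 stays above 90% by every measure, whereas the squares move away from the RPKM points for Fzd3, Dvl2 and Gsk3b.

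All 9 cytoplasmic transducers reached 10 RPKM in both replicates, against 42.2% of protein-coding loci. Ctnnb1 RNA had the highest RPKM of the 9 in both replicates. Ctnnb1, which encodes beta-catenin, a component of adherens junctions as well as the transducer, had 799 RPKM from 11858 reads in replicate 1 and 1195 RPKM from 92701 reads in replicate 2. It lay at percentile 99.6 of all loci. Apc, the scaffold of the destruction complex, had 110 and 97 RPKM, and Ctnnb1 minus Apc was 3.23 ± 0.54 (limit 2.39). On the scale of the longest transcript this difference was 2.30, and neither there (limit 2.33) nor at 3 SD was it beyond its limit. Ctnnb1 minus Axin1 was 3.82 ± 0.10 (limit 2.39).

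The Axin genes encode the limiting scaffold of the complex, Axin1 being known as widely expressed and Axin2 as induced by Wnt. Axin2 (joined with Gm11670) had 94.7 RPKM in replicate 1 and 61.2 RPKM in replicate 2, and Axin1 had 58.5 and 79.6 RPKM. Axin2 was thus higher in replicate 1 (difference 0.69) and lower in replicate 2 (-0.37), and the pair had no order. The turn came with the RPKM of Axin1, whose reads per RPKM were 3.13 times as high in replicate 2 as in replicate 1, where loci of 1 transcript had a ratio of 5.68. Per kilobase of the longest transcript and with no pseudocount, Axin2 exceeded Axin1 by 0.34 in replicate 1 and 0.19 in replicate 2 (log2).

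The GSK3 kinases phosphorylate beta-catenin and mark it for destruction. Gsk3b had 75.1 RPKM in replicate 1 and 60.0 RPKM in replicate 2, and Gsk3a, in a joined locus, had 47.2 and 34.0 RPKM. Their difference (0.73 ± 0.10, Gsk3b minus Gsk3a) was within the limit of 1.18 and turned to -0.48 on the scale of the longest transcript, so the data give the kinases no order.

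Dishevelled proteins couple frizzled receptors to both branches of the pathway. Dvl2 had 56.6 RPKM in replicate 1 and 48.7 RPKM in replicate 2, Dvl3 had 27.4 and 14.8 RPKM, and Dvl1 had 18.3 and 16.8 RPKM. Dvl1 and Dvl3 lay below Dvl2 by -1.53 ± 0.06 (limit 1.06) and -1.34 ± 0.45 (limit 0.98), and between Dvl3 and Dvl1 the sign changed with the replicate. The lead of Dvl2 depended on the length used. On the scale of the longest transcript the differences were -0.21 and -0.31, within their limits.

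All 4 TCF/LEF genes, the DNA-binding partners of beta-catenin, were detected. Tcf7l2 had 36.6 RPKM in replicate 1 and 29.2 RPKM in replicate 2, and its locus listed 24 transcripts, more than any other member's. Lef1, which is itself a Wnt target in many tissues, had 26.5 and 14.5 RPKM. Tcf7l1, best known as a repressor, had 18.1 and 7.42 RPKM in a locus joined with Gm15401, and Tcf7, also named TCF1, had 5.34 and 5.02 RPKM. Lef1 exceeded Tcf7 by 1.74 ± 0.53 (limit 1.13). The 3 higher genes were not separated from each other: Lef1 minus Tcf7l2 was -0.71 ± 0.36 (limit 1.5), Tcf7l1 minus Lef1 was -0.70 ± 0.25 (limit 1.09), and Tcf7l1 minus Tcf7l2 was -1.41 ± 0.61 (limit 1.5). In replicate 2 alone the last of these, -1.84, lay beyond the limit.

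Secreted antagonists were present at middle to low levels. With the Kremen receptors, 10 of 12 genes of this group reached 1 RPKM in both replicates, against 65.1% of protein-coding loci. The Sfrp proteins and Frzb carry a frizzled-like cysteine-rich domain and bind Wnt outside the cell. Sfrp2 had 24.9 RPKM in replicate 1 and 20.3 RPKM in replicate 2, Sfrp1 had 22 and 13.2 RPKM, and Frzb had 18.9 and 14.9 RPKM. These 3 genes together held nearly all of the family's RPKM, with mean shares of 39.1%, 29.7% and 29.1%. Sfrp1 minus Sfrp2 (-0.38 ± 0.30) and Frzb minus Sfrp1 (-0.02 ± 0.26) were within the limit of 1.06, though on the scale of the longest transcript Sfrp1 lay below Sfrp2 by -1.03, beyond its limit.

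Sfrp4 and Sfrp5 were below 1 RPKM in both replicates. Sfrp4 had 0.666 RPKM from 12 reads (95% Poisson interval 6.20 to 21 reads) in replicate 1 and 0.684 RPKM from 80 reads (63.4 to 99.6) in replicate 2. Sfrp5 had 0.676 RPKM from 11 reads (5.49 to 19.7) and 0.433 RPKM from 40 reads (28.6 to 54.5). Frzb exceeded Sfrp4 by 3.41 ± 0.24 and Sfrp1 exceeded Sfrp5 by 3.54 ± 0.33 on the log2(RPKM + 1) scale, both beyond the limit of 1.06, and this scale understates differences from genes so low. The intervals cover counting error only.

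Dickkopf proteins block LRP coreceptors, except Dkk3, a divergent member. Dkk2 had 14.8 RPKM in replicate 1 and 16.7 RPKM in replicate 2, Dkk1 had 7.59 and 6.33 RPKM, and Dkk3 had 6.82 and 5.75 RPKM. Dkk2 was among the few members that were not lower in replicate 2 by RPKM. Dkk1 minus Dkk2 was -1.07 ± 0.28, at the limit of 1.07, and was -0.88 and within it in replicate 1 alone. The order was also lost with a pseudocount of 0.1 or 0.01, with a limit of 3 SD, after rescaling replicate 2 to the median ratio, and on the scale of the longest transcript (-0.78). Both loci had 1 transcript, and with no pseudocount the mean difference on that scale was -1.03. Dkk3 minus Dkk1 was -0.13 ± 0.01, within the limit of 1.07.

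Kremen proteins are cell-surface receptors for Dickkopf proteins. Kremen1 had 8.77 RPKM in replicate 1 and 5.28 RPKM in replicate 2. The locus that holds Kremen2 had 90.0 and 81.4 RPKM but was joined with Flywch1 and another gene, so the difference of -3.47 ± 0.35 (Kremen1 minus Kremen2, limit 1.08) cannot be read as one between the Kremen genes. Wif1, a secreted Wnt-binding inhibitor, had 5.96 and 3.19 RPKM. Notum, an extracellular enzyme that removes the lipid from Wnt, had 6.65 and 4.13 RPKM in a locus joined with Myadml2 and their antisense genes.

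In the R-spondin system 3 of 4 ligands and 2 of 3 Lgr receptors reached 1 RPKM in both replicates, against 65.1% of protein-coding loci. R-spondins bind Lgr receptors and hold back Znrf3 and Rnf43, the ubiquitin ligases that clear frizzled receptors from the membrane. Rspo3 had 20.8 RPKM in replicate 1 and 17.4 RPKM in replicate 2, Rspo1 had 16.6 and 9.77 RPKM, and Rspo2, known for limb and lung development, had 9.62 and 7.10 RPKM. Rspo3 minus Rspo1 was 0.54 ± 0.33, within the limit of 1.06. Rspo3 exceeded Rspo2 by 1.11 ± 0.11 against the same limit, and in replicate 1 alone the difference of 1.04 did not pass it. This order was also lost with a pseudocount of 0.1 or 0.01, with a limit of 3 SD, after rescaling replicate 2 to the median ratio, and on the scale of the longest transcript (0.87). Both loci had 1 transcript, and with no pseudocount the mean difference on that scale was 1.09.

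Rspo4, known for nail formation, was the member whose replicates differed most in relative terms. It had 1.40 RPKM in replicate 1 and 0.246 RPKM in replicate 2, each from 16 reads (95% Poisson interval 9.15 to 26.0 reads), although the summed reads were 6.42 times as many in replicate 2. The log2 ratio of its RPKM, replicate 2 over replicate 1 and with no pseudocount, was -2.51. Rspo3 exceeded Rspo4 by 3.53 ± 0.50 (limit 1.06), a value that rests on these few reads.

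Among the Lgr receptors, Lgr4 accounted for 91.9% ± 1.34 of the summed RPKM (SD, n = 2), and for 92.9% and 91.2% per kilobase of the longest transcript. Lgr4 had 71.2 RPKM in replicate 1 and 47.1 RPKM in replicate 2. Lgr5, a Wnt target and a marker of adult intestinal stem cells, had 5.35 and 4.58 RPKM. Lgr6 was the lowest of the 54 members, with 0.144 RPKM from 6 reads (2.20 to 13.1) and 0.122 RPKM from 29 reads (19.4 to 41.7). Lgr4 exceeded Lgr5 by 3.31 ± 0.28 and Lgr5 exceeded Lgr6 by 2.39 ± 0.11, both beyond the limit of 1.13. These orders also held with either replicate alone.

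The ligases were low and close to each other. Znrf3 had 8.47 RPKM in replicate 1 and 4.46 RPKM in replicate 2, and Rnf43 had 4.08 and 2.53 RPKM. Znrf3 minus Rnf43 was 0.76 ± 0.19, within the limit of 1.21.

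The secretion factors were far apart in level. Wls, the carrier that takes Wnt proteins to the cell surface, had 72.4 RPKM in replicate 1 and 74.4 RPKM in replicate 2. Porcn, the enzyme that attaches the lipid to Wnt, had 4.95 and 3.94 RPKM. Wls exceeded Porcn by 3.78 ± 0.22 (limit 1.20).

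Planar polarity genes and the Naked cuticle genes were all detected. Vangl2, a core membrane protein of planar polarity that is needed for neural tube closure, had 37.2 RPKM in replicate 1 and 22.7 RPKM in replicate 2. Vangl1 had 40.3 and 18.3 RPKM in a locus joined with Gm16160, and the sign of their difference changed with the replicate (-0.11 and 0.30). Prickle1, a cytoplasmic partner of Vangl proteins, had 16.1 and 11.0 RPKM, and Prickle2 had 9.69 and 6.32 RPKM, a difference of 0.70 ± 0.03 within the limit of 1.05. On the scale of the longest transcript Prickle1 led by 1.06, beyond its limit.

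Naked cuticle proteins bind Dishevelled and dampen the signal. Nkd1, a feedback target, had 32.3 RPKM in replicate 1 and 36.5 RPKM in replicate 2, and Nkd2 had 11.7 and 10.4 RPKM. Nkd1 exceeded Nkd2 by 1.56 ± 0.23, beyond the limit of 1.5, but in replicate 1 alone (1.39) it did not.

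Between the replicates, the members' median ratio lay close to that of loci of 1 RPKM or more on average. The log2 ratio of RPKM + 1, replicate 2 over replicate 1, had a median of -0.37 over the members and -0.38 over the 18335 loci of 1 RPKM or more on average. The median was -0.16 over all 34624 loci and -0.25 over protein-coding loci, low loci included. The ratio was below 0 for 48 of 54 members, against 79.1% of the 18335 loci. Past 2-fold lay 2 members, Tcf7l1 (-1.18) and Vangl1 (-1.10), both in joined loci and both lower in replicate 2, whereas of the loci 11.8% lay past 2-fold (8.74% lower and 3.03% higher in replicate 2). At the other end were Ctnnb1 (0.58) and Axin1 (0.44), both higher in replicate 2.

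The ratio depended on the unit for some members. In CPM, which uses no length, 52 of 54 members were lower in replicate 2, and their median was -0.64, against -0.54 over loci of 1 CPM or more. The units differ in scale too: in replicate 2 the reads per RPKM of loci of 1 transcript were 5.68 times as high. Summed reads were 6.42 times as many, which lowers CPM ratios against RPKM ratios even where the length is the same. By CPM 5 members (Fzd5, Tcf7l1, Lef1, Znrf3 and Vangl1) were more than 2-fold lower and none higher, against 8.87% and 1.82% of loci, 10.7% in all. For 33 members, all with several transcripts, the reads per RPKM departed by more than 1 percent from the ratio of 5.68. The length behind their RPKM may thus differ between the libraries, but how transcripts were combined is not given. The 16 members of 1 transcript and 5 others kept the ratio of 5.68. Of the 10593 loci with over 200 reads in replicate 1, 42.9% kept that ratio. Axin1 was higher in replicate 2 by RPKM (0.44) and lower by CPM (-0.58). Tcf7 had a ratio near 0 by RPKM (-0.07) and lower by CPM (-0.76), with 130 reads in replicate 1 and 445 in replicate 2. In all, 4 members (Axin1, Wls, Nkd1 and Dkk2) had opposite signs in the units, against 8.96% of loci, and for Dkk2 the CPM ratio was near 0. Wls and Dkk2 had 1 transcript, and their reads per RPKM kept the ratio of 5.68. Ctnnb1 was higher in replicate 2 by both (0.58 and 0.28).

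**Figure D4:**
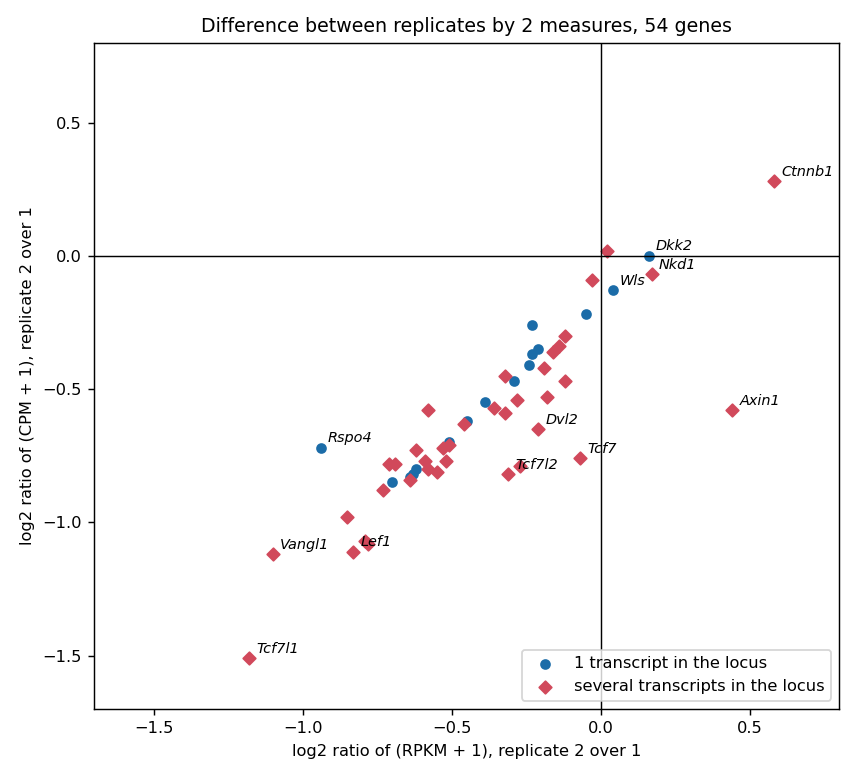
Log2 ratio between replicates, replicate 2 over replicate 1, of each of the 54 genes from RPKM + 1 (x axis) and from CPM + 1 (y axis). Genes with 1 transcript (circles) lie along a line except Rspo4, while Axin1 and Tcf7, with several transcripts (diamonds), lie far below it.

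Other genes of the pathway were described from 6 lists, ranked by the mean RPKM of both replicates. Wnt ligands had a lower median than the 54 members: their median was 2.84 RPKM in replicate 1 and 2.44 RPKM in replicate 2. It was also below the median of protein-coding loci (8.38 and 5.52 RPKM). Of the 19 ligands, 14 (73.7%) reached 1 RPKM in both replicates, against 65.1% of protein-coding loci. At 10 RPKM or more in both there were 2 (10.5%), against 42.2% of protein-coding loci. Wnt5a, a ligand of the beta-catenin-independent branch, was highest (51.6 and 31.8 RPKM, joined), followed by Wnt5b (12.9 and 10.9 RPKM) and Wnt7b (13.5 and 9.62 RPKM, joined), and Wnt10a was lowest by the mean (0.420 and 0.148 RPKM), though not in replicate 1. Of 6 measured receptors outside the frizzled and LRP families 5 (83.3%) reached the minimum of 1 RPKM in both replicates, against 65.1% of protein-coding loci. Ryk (52.2 and 56.2 RPKM), Ptk7 (40.6 and 34.1 RPKM) and Ror2 (27.9 and 19.2 RPKM) led them, and Musk, the receptor of the nerve-muscle synapse, was lowest (0.560 and 0.546 RPKM).

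Intracellular components were detected throughout. The other 13 genes of the destruction complex and its kinases all reached 10 RPKM in both replicates, against 42.2% of protein-coding loci. The median of these 13 genes was 74.9 RPKM in replicate 1 and 50.9 RPKM in replicate 2. Their highest were the casein kinase genes Csnk1a1 (294 and 304 RPKM) and Csnk1d (294 and 254 RPKM) and the tankyrase gene Tnks2 (212 and 262 RPKM), and Btrc, a substrate adaptor of the ubiquitin ligase for beta-catenin, was lowest by the mean (27.2 and 20.03 RPKM), though not in replicate 1. All 15 nuclear cofactors and corepressors reached 1 RPKM, against 65.1% of protein-coding loci. The list was led by Ctbp2 (344 and 308 RPKM, joined with Fgfr2), Ctbp1 (123 and 112 RPKM) and Tle1 (102 and 87.8 RPKM, joined). Tle2 was lowest by the mean (7.59 and 4.40 RPKM, joined), though not in replicate 2. All 13 measured planar polarity genes of the list reached 1 RPKM too, against the same 65.1% of protein-coding loci. Invs (213 and 226 RPKM, joined), Rhoa (97.5 and 72.2 RPKM) and Rac1 (78.6 and 62.2 RPKM) were highest, and Dact2 was lowest (2.15 and 1.16 RPKM).

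Of 21 genes known as Wnt/beta-catenin targets in some tissue, 9 of which are members, 17 reached 1 RPKM in both replicates. The share was 81%, against 65.1% of protein-coding loci. Ccnd1, a G1 cyclin with many other inputs, was highest (101 and 99.9 RPKM), followed by Axin2 and Nkd1. Cdx1, a homeobox gene of the posterior embryo, was lowest (0.0823 RPKM from 1 read and 0.0724 RPKM from 5 reads). The list's median was 5.35 RPKM in replicate 1 and 4.46 RPKM in replicate 2, below the median of the members. It was also below the median of protein-coding loci (8.38 and 5.52 RPKM). At 10 RPKM or more in both replicates there were 6 of the 21 (28.6%), against 42.2% of protein-coding loci.

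**Figure D5:**
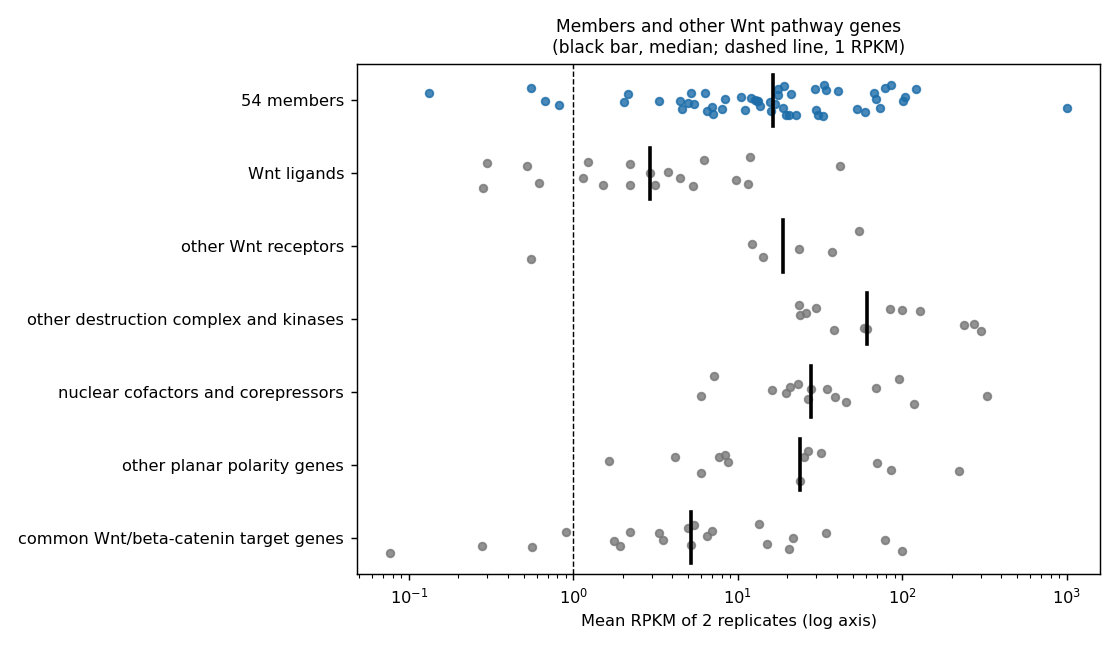
Mean RPKM of both replicates on a log axis for the 54 members (top row) and for the genes of 6 other lists of the pathway, 1 point per gene, with the median as a black bar. Wnt ligands and target genes reach down below 1 RPKM, whereas the destruction complex list starts above 10 RPKM.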

How the data were processed

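Libraries of total RNA from 2 replicates of whole embryos were made for Illumina sequencing, per the labels' protocols. TopHat (no version) and the build mm9 are named in the submitters' processing notes. How reads were counted and filtered, and whether by strand, is not given in the sources used here. Antisense partners such as Notumos may therefore share reads. Per the file headers, the authors deposited RPKM and whole-number read counts for each locus. Rows with the same gene identifiers were summed (34676 rows to 34624 loci, 2473 of them joined). Symbols came from a table of names, which matched 32642 of 37681 identifiers (86.6%). RPKM was the main unit, since levels of different genes need a length. Counts gave depth, Poisson intervals, CPM, and reads per kilobase of the longest transcript with GENCODE M21 lengths (205 of 221 member transcripts had one). That annotation is later than the authors' and on another build, and in a joined locus the longest transcript may be another gene's.

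The spread used for pairs was the SD of the log2 ratio between replicates in 20 bins of equal size over loci of 1 RPKM or more, with a pseudocount of 1, and the wider bin of a pair was used. Loci below 1 RPKM took the SD of the lowest bin. No count model was run, as there was 1 group. Members, lists, pairs and rules were chosen with earlier results of these data known. All members were named; of each other list the 3 highest genes and the lowest were. Gpr124 and Prickle4 were not analysed here. Python 3.11.15, numpy 2.4.6, pandas 2.3.3, scipy 1.17.1 and matplotlib 3.10.9 were used.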

Additional observations from a re-analysis of the deposited data

How the results depend on the processing

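The number of members at 1 RPKM or more, 50, was between 47 and 52 with minimums of 3 and 0.3 RPKM, and 50 and 51 with replicate 2 or replicate 1 alone. With reads per kilobase of the longest transcript, chosen after the data were seen and scaled to a larger read total, the median of the members was 5.455, against 16.4 RPKM, and 12 members reached 10, against 32. The share of all loci that reached 10 on this scale is not given, so the members cannot be set beside other loci on it. Past 2-fold between replicates lay 5 members in CPM, 4 with a pseudocount of 0.1, 1 (Ctnnb1, 1.01, higher in replicate 2) after rescaling replicate 2 by its median ratio, and 0 among single-gene loci, against 2 in RPKM. Of the 20 ordered pairs, 13 stayed so under each setting run for them. Among these 13, Fzd10 against Fzd9, Kremen1 against Kremen2 and the pairs with Sfrp4, Sfrp5, Rspo4 or Lgr6 ran in 9 of the 10 settings. Pairs with a joined locus were left out of the setting of single-gene loci, where 18 of 28 pairs were ordered. Pairs with a member below 1 RPKM were left out where both had to reach it, and 16 of 32 were ordered there. With a limit of 3 SD 13 pairs were ordered. With replicate 1 or replicate 2 alone 17 and 20 pairs were. None of the 20 changed sign under these settings. With a minimum of 3 RPKM, 8 of 19 Wnt ligands passed, against 14 at 1 RPKM. The shares of all loci at minimums of 3 and 0.3 RPKM are not given here. Low members rested on few reads in replicate 1, which limits what can be said of Rspo4, Sfrp4, Sfrp5 and Lgr6. No paired analysis was possible because there is only 1 group.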
